A study of Mus musculus with 48 samples.

Results

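The NMDA receptor is a glutamate-gated calcium channel built from 7 subunit genes, Grin1, Grin2a, Grin2b, Grin2c, Grin2d, Grin3a and Grin3b. They were found by symbol from the Ensembl identifiers of the count tables, and all 7 were present, among 48709 gene identifiers for neuron RNA and 47729 for whole CA RNA. Each was followed per library in both materials, with levels compared between libraries and not between genes, together with the read ratio of Grin2a to Grin2b and the histone marks around the genes.

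The libraries came from C57BL/6J mice aged 4 to 6 months, labelled Setd1b cKO (a conditional knockout of Setd1b, an enzyme that methylates lysine 4 of histone H3) or Control. Neuron RNA of the hippocampal CA region was measured in 3 cKO and 3 Control libraries, and RNA of whole CA tissue in 6 and 6. Chromatin immunoprecipitation from sorted neuronal nuclei gave peak lists for H3K4me3 and H3K4me1 (4 and 4 libraries each), H3K27ac (4 cKO, 3 Control) and H3K9ac (3 cKO, 4 Control). The Cre driver, the deleted exons, the sex of the animals and whether each library is a separate animal are not given in the sources used here, so p-values measure the spread between these libraries. In bulk RNA, fewer cells of a type and less RNA per cell cannot be told apart.

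Every NMDA receptor holds GluN1 (Grin1), which binds the co-agonist glycine or D-serine, and GluN2 subunits, where present, bind glutamate. GluN2A (Grin2a) and GluN2B (Grin2b) are the main GluN2 subunits of adult hippocampal pyramidal cells, and their balance changes during postnatal development and shapes channel kinetics and synaptic plasticity. GluN2C and GluN2D occur mainly in other cells of the forebrain, and the glycine-binding GluN3A and GluN3B reduce calcium permeability. H3K4me3 marks active gene starts and can spread into broad domains, H3K4me1 flanks them and marks enhancers, and H3K27ac and H3K9ac mark active chromatin.

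Promoter sequences from RefSeq (GRCm38.p6) matched 4 of the 7 genes. They are shown because the width of H3K4me3 at these 4 starts differed widely, from under 1 kb at Grin2c and Grin3b to several kilobases at Grin1. Each runs over the 250 bases before the start site of its RefSeq promoter entry, 5′ to 3′ on the gene's strand. For Grin1 that site is the end of the annotated gene span, while for Grin2d, Grin3b and Grin2c it lies 4513, 327 and 54 bp inside the span, so that these stretches fall in it in whole or in part. Capitals mark a GC box (GGGCGG) or an E-box (CACGTG), searched on both strands with overlapping matches counted. The positions are chr2:25319188-25319437 (minus strand) for Grin1, chr11:115267244-115267493 (minus) for Grin2c, chr7:45866682-45866931 (minus) for Grin2d and chr10:79970474-79970723 (plus) for Grin3b.
Grin1: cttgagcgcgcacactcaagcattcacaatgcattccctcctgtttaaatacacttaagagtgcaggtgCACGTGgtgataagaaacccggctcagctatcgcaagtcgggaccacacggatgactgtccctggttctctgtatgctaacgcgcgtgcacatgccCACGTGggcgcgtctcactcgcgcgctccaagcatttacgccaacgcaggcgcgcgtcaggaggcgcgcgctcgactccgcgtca
Grin2c: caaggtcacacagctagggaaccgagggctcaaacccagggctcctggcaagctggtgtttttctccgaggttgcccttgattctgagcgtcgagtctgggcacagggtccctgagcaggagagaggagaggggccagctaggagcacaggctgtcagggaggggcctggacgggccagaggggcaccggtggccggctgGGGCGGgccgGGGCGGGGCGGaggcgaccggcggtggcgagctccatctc
Grin2d: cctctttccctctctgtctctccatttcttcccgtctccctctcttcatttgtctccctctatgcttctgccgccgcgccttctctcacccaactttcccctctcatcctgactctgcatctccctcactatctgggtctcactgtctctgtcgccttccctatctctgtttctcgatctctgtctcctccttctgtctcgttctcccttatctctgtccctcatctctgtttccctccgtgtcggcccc
Grin3b: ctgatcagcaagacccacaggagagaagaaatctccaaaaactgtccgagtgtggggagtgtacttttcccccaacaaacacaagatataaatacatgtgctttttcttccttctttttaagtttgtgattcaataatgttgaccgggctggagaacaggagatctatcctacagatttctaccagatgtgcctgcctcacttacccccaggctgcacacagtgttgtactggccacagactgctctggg

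The Grin1 promoter held 27 CpG dinucleotides, more than 91.4% of 32851 promoters, and 2 E-boxes, a motif found in 6.02% of promoters. The Grin2c promoter held 3 GC boxes, 2 of them overlapping, and 15 CpG. GC boxes were found in 32.7% of promoters. Grin2d had 9 CpG and Grin3b 2 CpG, against a median of 6, and neither motif was found in these 2 windows. The cyclic AMP response element TGACGTCA, held by 1.55% of promoters, was found in none of the 4.

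Depth was 55.7 to 69.1 M reads on genes per neuron library and 14.9 to 20.1 M per whole CA library. Counts of Setd1b over the whole gene were not lower in libraries labelled cKO: the means were 64.9 ± 6.41 CPM (reads of the gene per M reads on genes, SD, n = 3) against 54.2 ± 9.73 (n = 3) for neuron RNA, while whole CA libraries gave 59.6 ± 6.27 (n = 6) against 39.3 ± 8.54 (n = 6), a log2 fold change of 0.59 that passed the test. Counts over the whole gene do not show whether single exons are missing. Genotypes below are therefore those of the labels. Summed astrocyte markers lay at 356 to 414 CPM in Control and 434 to 455 CPM in cKO neuron libraries, and at 5624 to 6416 CPM over all whole CA libraries. No marker of any listed cell type was at 0 in a library.

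**Figure D1:**
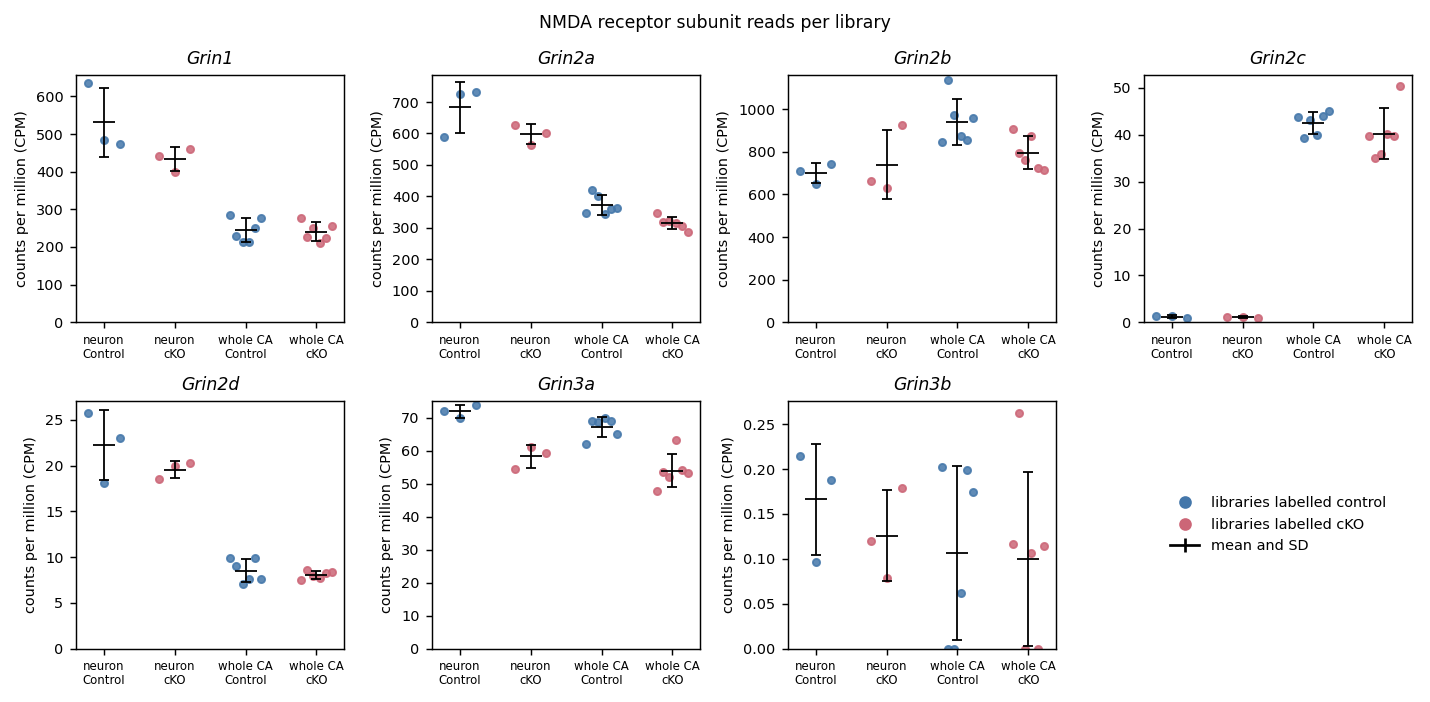
CPM of each NMDA receptor subunit in each RNA library (points), by material and labelled genotype, with the mean and SD. Each panel has its own axis. Grin3a is lower in every neuron library labelled cKO, and Grin2c is near 1 CPM in neuron RNA and 35.1 to 50.4 CPM in whole CA RNA.

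The comparison of genotypes asks whether subunit RNA differs when Setd1b is conditionally deleted. In whole CA RNA, Grin3a and Grin2a fell in the libraries labelled cKO, by 0.33 and 0.25 on the log2 scale. These were 2 of the 6 subunits tested, where 4.17% of 15362 genes were called (edgeR adjusted p under 0.05) and 2.79% were called lower. In neuron RNA edgeR called none of the 7 subunits, where 2.75% of 19622 genes were called. At an unadjusted p under 0.05 there were 2 (Grin1 and Grin3a), where 17.2% of all genes were, and DESeq2 called 1, where it called 4.25% of all genes. Here the median log2 fold change of the 7 was -0.20 beside 0.02 over all genes tested. The median of the 6 in whole CA RNA was -0.17 beside 0.00. The share of all genes without overlap between genotypes was not counted.

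Grin1, the obligatory subunit, was close between genotypes in whole CA RNA and lower in every cKO neuron library. In neuron RNA it stood at 441, 398 and 461 CPM in cKO libraries 1 to 3 and at 637, 484 and 473 CPM in Control libraries 1 to 3. The groups did not overlap, and Control library 1 was the highest. The log2 fold change of -0.31 (SE 0.13) did not pass the test (edgeR adjusted p 0.27), and was -0.16 without Control library 1. Across whole CA libraries those labelled cKO ran from 209.7 through a median of 238 to 278 CPM and the Control libraries from 212 through 240.1 to 286 CPM. The 2 groups covered nearly the same range, with a log2 fold change of -0.04 (standard error 0.09, adjusted p 0.898 by edgeR). The lncRNA gene Grin1os overlaps 7403 bp of Grin1, and the TruSeq v2 kit does not mark strand. Its counts came to 6.76 to 9.02% of those of Grin1 in neuron libraries and to 1.65 to 3.35% in whole CA libraries, and reads of the pair cannot be told apart by strand.

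Grin2a, the subunit of the faster receptors, fell in whole CA RNA. Its cKO libraries there ran from 288 through a median of 317 to 348 CPM, and its Control libraries from 344 through 362 to 419 CPM. Of the 6 cKO libraries, 5 lay below every Control library, and cKO library 1 lay within the Control range. The log2 fold change was -0.25 (standard error 0.06, adjusted p 0.0324 by edgeR). The call was lost in 8 of 12 fits that left out 1 library (adjusted p up to 0.0931), namely without cKO library 2, 4, 5 or 6 or Control library 2, 3, 5 or 6. It was also lost within each sequencing lane (adjusted p 0.279 in replicates 1 to 3 and 0.129 in replicates 4 to 6), with log2 fold changes of -0.22 and -0.28. In neuron RNA, Grin2a stood at 628, 564 and 603 CPM in cKO libraries and 590, 726 and 733 CPM in Control libraries 1 to 3. These groups overlapped through Control library 1, and the log2 fold change was -0.20 (standard error 0.11, adjusted p 0.394 by edgeR).

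Grin2b, the subunit of slower receptors that binds CaM kinase II, had the same fold change as Grin2a in whole CA RNA but missed the threshold. The cKO libraries ran from 715 through a median of 778 to 908 CPM and the Control libraries from 846 through 916 to 1135 CPM. Of the cKO libraries, 4 of 6 lay below every Control library. The log2 fold change was -0.25 (standard error 0.08, adjusted p 0.0754 by edgeR), and it was called with the sequencing lane as a factor (adjusted p 0.0455), without the count filter (0.0274) and without cKO library 1 (0.0429). In neuron RNA the values were 665, 629 and 927 CPM in cKO libraries 1 to 3 and 710.1, 648 and 741 CPM in Control libraries 1 to 3. The cKO libraries held both the lowest and the highest value, with a log2 fold change of 0.07 (standard error 0.15, adjusted p 0.843 by edgeR). Its difference in genotype effect between the materials was 0.33 (SE 0.16, unadjusted p 0.0493, edgeR adjusted p 0.614). The interaction test called none of the 6 subunits tested, and 0.16% of all genes (edgeR), with 1 of the 6 (Grin2b) at an unadjusted p under 0.05, where 8.11% of all genes were.

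Grin2c, found outside pyramidal cells in the forebrain, was nearly absent from neuron RNA. It stood at 1.21, 1.18 and 0.969 CPM in cKO libraries and 1.4, 1.29 and 0.927 CPM in Control libraries 1 to 3 there, from 54 to 85 reads. Whole CA libraries labelled cKO ran from 35.1 through a median of 39.7 to 50.4 CPM and the Control libraries from 39.4 through 43.5 to 45.0 CPM. Genotypes overlapped in both materials, with log2 fold changes of -0.11 (standard error 0.21, adjusted p 0.82 by edgeR) and -0.10 (SE 0.07, adjusted p 0.583).

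Grin2d, a subunit of interneurons, stood at 18.5, 19.9 and 20.3 CPM in cKO and 25.7, 18.1 and 23 CPM in Control neuron libraries 1 to 3. Control library 2 was below all cKO libraries. Its range in whole CA RNA was 7.47 to 8.54 CPM in cKO and 7.04 to 9.9 CPM in Control libraries, and the cKO libraries all lay within the Control range. The log2 fold changes were -0.20 (standard error 0.13, adjusted p 0.458 by edgeR) and -0.10 (SE 0.10, adjusted p 0.737).

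Grin3a, the subunit of calcium-poor and immature receptors, was lower in libraries labelled cKO by nearly the same amount in both materials. In neuron RNA it stood at 54.5, 61.2 and 59.4 CPM in cKO libraries and 72.1, 70 and 73.8 CPM in Control libraries 1 to 3. The groups did not overlap. The log2 fold change of -0.32 (SE 0.08) missed the threshold in edgeR (adjusted p 0.0718) and passed it in DESeq2 (adjusted p 0.0256). The whole CA libraries labelled cKO ran from 47.7 through a median of 53.5 to 63.3 CPM and the Control libraries from 62.1 through 68.8 to 70 CPM. Only cKO library 4 reached into the Control range, just above Control library 1. The log2 fold change was -0.33 (standard error 0.06, adjusted p 0.00194 by edgeR), and the call held in all 12 fits that left out 1 library (adjusted p at most 0.011). With 3 libraries a group within 1 lane it was -0.37 (adjusted p 0.051) and -0.30 (adjusted p 0.163). The difference of its genotype effect between materials was 0.02 (SE 0.10, adjusted p 0.952).

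Grin3b was at the detection limit. Neuron libraries held 5 to 13 reads, 0.0788 to 0.215 CPM, with a log2 fold change of -0.43 (standard error 0.44, adjusted p 0.649 by edgeR). Whole CA libraries held 0 to 4 reads, and 2 of 6 of each genotype had 0, where 3 reads would be 0.149 to 0.202 CPM. It did not pass the count filter there, so no difference was detectable at this depth.

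**Figure D2:**
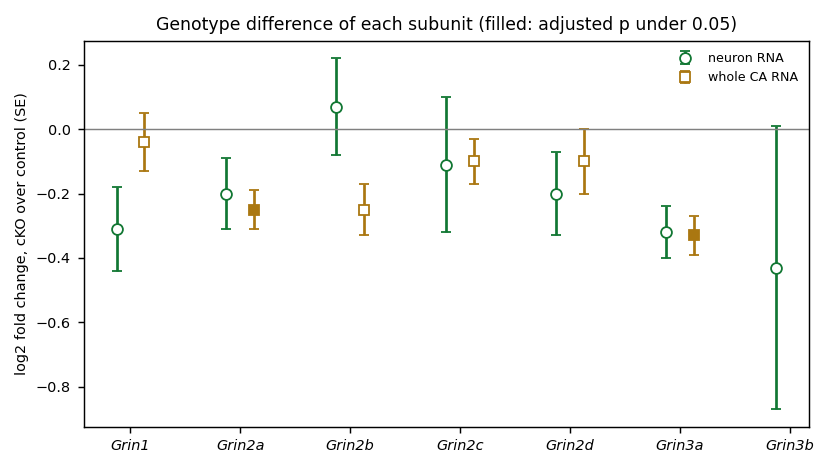
Log2 fold change of each subunit, libraries labelled cKO over Control, with its standard error from edgeR, in neuron RNA (circles) and whole CA RNA (squares). Filled symbols passed an adjusted p of 0.05, which only Grin2a and Grin3a in whole CA RNA did. Grin3b was not tested in whole CA RNA.

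Markers of several cell types differed between the genotypes beside these changes. The largest fall among them was that of Neurod6, a transcription factor of glutamatergic neurons, at -1.78 in whole CA RNA (edgeR adjusted p 1.48e-07) and -2.24 in neuron RNA (adjusted p 2.96e-05). It was the 1 of 4 glutamatergic markers called in each material, and their summed levels overlapped between genotypes (1857 to 2001 against 1915 to 2117 CPM in whole CA RNA, 1381 to 1634 against 1524 to 1835 CPM in neuron RNA). Also lower in whole CA RNA were the CA1 marker Wfs1 (-0.43, adjusted p 0.0122), 1 of 4, and the astrocyte marker Aqp4 (-0.38, adjusted p 0.0122), 1 of 7. Among other lists there, 4 of 6 CA2 and CA3 markers fell, their summed levels being 230 to 305 CPM in cKO and 302 to 342 CPM in Control libraries, as did 1 of 6 microglial markers (232 to 259 against 266 to 320 CPM). Dentate granule markers, of which 1 of 4 fell, summed to 30 to 73.6 against 54.5 to 83.1 CPM. In neuron RNA, 3 of 4 dentate markers fell (115 to 150.5 against 153 to 179 CPM), as did 1 of 4 CA1 markers (Wfs1, -1.11, adjusted p 0.000219, list sum 336 to 404 against 421 to 505 CPM) and 1 of 6 CA2 and CA3 markers (224 to 244 against 265 to 308 CPM). By edgeR, 4.17% of all genes were called in whole CA RNA and 2.75% in neuron RNA. No marker of interneurons (9 listed), oligodendrocytes (6), their precursors (2), fibroblasts (3) or endothelial and mural cells was called in either material. The part of the marker changes in the subunit values was not tested.

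Read ratios between subunits were taken within each library, so they do not depend on its depth, and were then compared between genotypes. Their absolute size also reflects transcript length. Grin2a to Grin2b stood at the same value in both genotypes of whole CA RNA. The ratio ran from 0.359 through a median of 0.402 to 0.422 in cKO libraries and from 0.369 through 0.401 to 0.42 in Control libraries. The ranges nearly coincided, with geometric means of 0.398 and 0.397 and a log2 difference of 0.00 (two-sided exact permutation p = 0.948, adjusted 1.0 over 6 ratio tests). The SDs of the log2 ratio were 0.0887 and 0.0726 (n = 6 and 6).

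In neuron RNA the same ratio lay between 0.65 and 0.944 in cKO libraries and between 0.831 and 1.12 in Control libraries. The lowest value was that of cKO library 3, where Grin2b was highest. The log2 difference of -0.25 was within the spread (SD 0.291 and 0.217, n = 3 and 3; exact permutation p = 0.4, adjusted 0.6, where 0.1 is the smallest p that 3 against 3 libraries allow). It was -0.08 without cKO library 3, -0.15 without Control library 2 and -0.36 to -0.24 without any 1 of the other 4. Against Grin1, Grin2a differed by 0.10 in neuron RNA (exact p 1.0) and by -0.21 in whole CA RNA (exact p 0.117). Grin2b to Grin1 differed by 0.35 in neuron RNA (exact p 0.2) and by -0.21 in whole CA RNA (exact p 0.154). Adjusted p-values of these 4 were 0.4 or more.

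**Figure D3:**
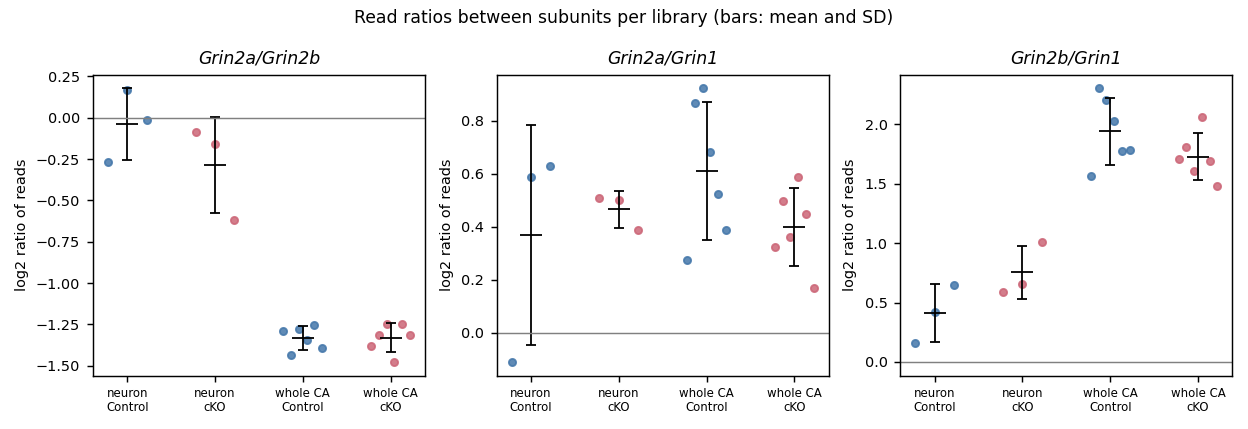
Log2 ratio of reads between subunits in each RNA library, with mean and SD, by material and labelled genotype. Grin2a to Grin2b separates the materials (Control geometric means 0.973 for neurons and 0.397 for whole CA) and overlaps between genotypes in each material.

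Between the materials, in Control libraries, 5 of 6 subunits differed, where 83% of all genes did (39.8% lower and 43.2% higher in neuron RNA). The materials were sequenced in separate runs, and their share of mitochondrial reads differed. Material, run and the part of the cell that gave the RNA cannot be told apart here. Mitochondrial reads made up 0.0081 to 0.0144% of the neuron libraries and 3.4064 to 7.0522% of the whole CA libraries. Grin1, Grin2a and Grin2d were higher in neuron RNA by 0.94 (SE 0.11), 0.70 (SE 0.08) and 1.21 (SE 0.11) on the log2 scale (edgeR adjusted p 3.99e-08, 5.44e-08 and 8.44e-10). Grin2b was lower by 0.61 on that scale, a log2 fold change of -0.61 (standard error 0.12, adjusted p 4.25e-05 by edgeR). Neuronal marker lists went both ways between the materials. Their medians were -0.5 for glutamatergic, -0.69 for interneuron, -0.21 for CA1, -0.72 for CA2 and CA3 and 0.95 for dentate granule markers. Grin2c stood lowest, at -5.32 (standard error 0.14, adjusted p 1.23e-19 by edgeR), beside medians of -5.88 for 7 astrocyte markers and -5.16 for 6 oligodendrocyte markers. Endothelial and mural markers were as low (median -6.06), as were those of microglia (-5.15), while oligodendrocyte precursors stood at -4.24. Grin3a differed by -0.08 (SE 0.07, adjusted p 0.298), and this difference turned to 0.10 when libraries were scaled by size alone, a scaling that moved the median of all genes from 0.07 to 0.25.

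Between the same 2 materials, with the same limits, the Grin2a to Grin2b ratio was higher in Control neuron RNA, by 1.29 on the log2 scale. Grin2b to Grin1 was lower there, by -1.54. Both were separated in every library (exact permutation p = 0.0238, adjusted 0.0357 over 3 tests, 3 against 6 libraries, the smallest p possible). Grin2a to Grin1 differed by -0.24 (exact p 0.357). Over the 4 groups, Grin1, Grin2a, Grin2c and Grin2d kept neuron and whole CA RNA apart, while Grin2b overlapped at each step of its order, from 941 CPM in Control whole CA to 699.7 CPM in Control neuron RNA. Grin3a was ordered by genotype, with Control means of 72.0 and 67.3 CPM above cKO means of 58.4 and 54.0 CPM.

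Proteins that anchor, move or signal from the receptor were followed as 47 genes, of which 46 were tested. None was called in neuron RNA by edgeR, where 2.75% of all genes were, and 1 by DESeq2, where 4.25% were. Their median log2 fold change was -0.06 beside 0.02 over all genes tested. Of the 46 pathway genes, 1 fell and 2 rose in whole CA RNA (median -0.01), where 2.79% of all genes were called lower and 1.38% higher. Neto1, a membrane partner of receptors with GluN2A, fell, with 100.3 to 129.6 CPM in cKO and 132 to 156 CPM in Control libraries and no overlap (log2 fold change -0.37, SE 0.07, edgeR adjusted p 0.00641). Kif17, a motor that carries GluN2B along dendrites, rose, with 32.7 to 39.3 against 15.1 to 28.1 CPM and again no overlap (0.69, SE 0.10, adjusted p 0.000388). Rasgrf1, a Ras exchange factor of the receptor, rose, with 712 to 789 against 592 to 684 CPM (0.24, SE 0.05, adjusted p 0.0154). Their neuron values were -0.23, 0.28 and 0.03 (adjusted p 0.259, 0.255 and 0.914). All 9 scaffold genes and 11 genes for kinases and phosphatases missed the threshold in both materials.

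Of 13159 genes, those most like a subunit across the 12 whole CA libraries were ranked by Pearson's r of log2 CPM, as a description with shared genotype, lane and depth. For Grin2a they were Kcnq3 (r = 0.95, a potassium channel), Hivep2 (0.94) and Rasal2 (0.94). Over the 6 neuron libraries their r was 0.91, 0.59 and 0.75. Grin2b had Lrp1b (0.96), Cacna1e (0.95, a calcium channel) and again Hivep2 (0.92), with -0.16, 0.22 and -0.22 in neuron RNA. Grin3a had Dnah9 (0.96), Tagln3 (0.96) and Pde11a (0.95), with 0.37, 0.99 and 1 in neuron RNA. Grin1 had Nfix (0.94), Zfp710 (0.93) and Arhgap39 (0.93), with 0.81, 0.74 and 0.99. For Grin2c and Grin2d the highest values were 0.92 (Slc25a29) and 0.83 (2810004N23Rik).

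Peak lists show how far each mark extended around the subunit genes in neuronal nuclei. For Grin1, Grin2c, Grin2d and Grin3b the start site came from RefSeq. For Grin2a (chr16:9567901-9996083), Grin2b (chr6:135713221-136173615) and Grin3a (chr4:49661611-49846023) no promoter was matched, so both ends of the gene span were examined. H3K4me3 peaks lay at the end with the higher coordinate in all 8 libraries, and within 15 kb of the lower end in none. H3K4me3 coverage was shorter in the libraries labelled cKO at Grin1, Grin2a, Grin2b and Grin3a.

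Within 15 kb on each side, these 4 of 7 genes were lower, where 23.4% of 29446 windows were (limma adjusted p under 0.05, lower). Within 5 kb, 3 of 7 were lower (Grin1, Grin2b and Grin3a), where 26.9% of 24216 windows were. The narrower call at Grin2b (-0.14, adjusted p 0.0181) was lost without Control library 3 (adjusted p 0.0544). The wider window was added after it was seen that peaks at Grin2a and Grin2b reached past the narrower one. The median log2 difference over all windows was -0.08 within 15 kb and -0.09 within 5 kb. The share of all windows without overlap between genotypes was not counted. A single input library served each genotype, so input and genotype cannot be told apart.

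At Grin2b the covered length within 15 kb was 15653, 15339, 16027 and 15770 bp in Control libraries 1 to 4 and 8071, 10763, 8738 and 8390 bp in cKO libraries 1 to 4. The groups did not overlap. The log2 difference was -0.81 (SE 0.09, limma adjusted p 0.000665). At Grin2a it was 11875, 11461, 12274 and 11985 bp in Control and 5118, 7535, 6826 and 6576 bp in cKO libraries. Again every cKO library was below every Control library, with a log2 difference of -0.87 (SE 0.11, limma adjusted p 0.00124).

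Grin1 had 8281, 8686, 9141 and 8780 bp in Control and 4235, 4785, 5058 and 5400 bp in cKO libraries 1 to 4. These did not overlap, at a log2 difference of -0.83 (SE 0.08, limma adjusted p 0.000326). Grin3a had 4215, 4537, 4337 and 4063 bp in Control and 2991, 3292, 3403 and 3471 bp in cKO libraries. The difference was smaller but also free of overlap (-0.37, SE 0.06, limma adjusted p 0.00344). All 4 calls held in each of 8 fits without 1 library. Each difference had the same sign in both sequencing lanes, where the second lane held 1 library of each genotype.

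Grin2c, Grin2d and Grin3b were not called. Within 15 kb their log2 differences were 0.04 (adjusted p 0.823), -0.16 (0.275) and -0.08 (0.41), and their ranges overlapped between genotypes. These windows also take in neighbouring genes: in all 8 libraries the strongest H3K4me3 peak within 15 kb lay over Fdxr for Grin2c, Kdelr1 for Grin2d and Wdr18 for Grin3b, with a -log10 q of 219 to 365. The strongest peak near the start of these 3 subunits had 1.61 to 38.3. At Grin2c and Grin3b the strongest peak near the start was 180 to 897 bp wide in all libraries.

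**Figure D4:**
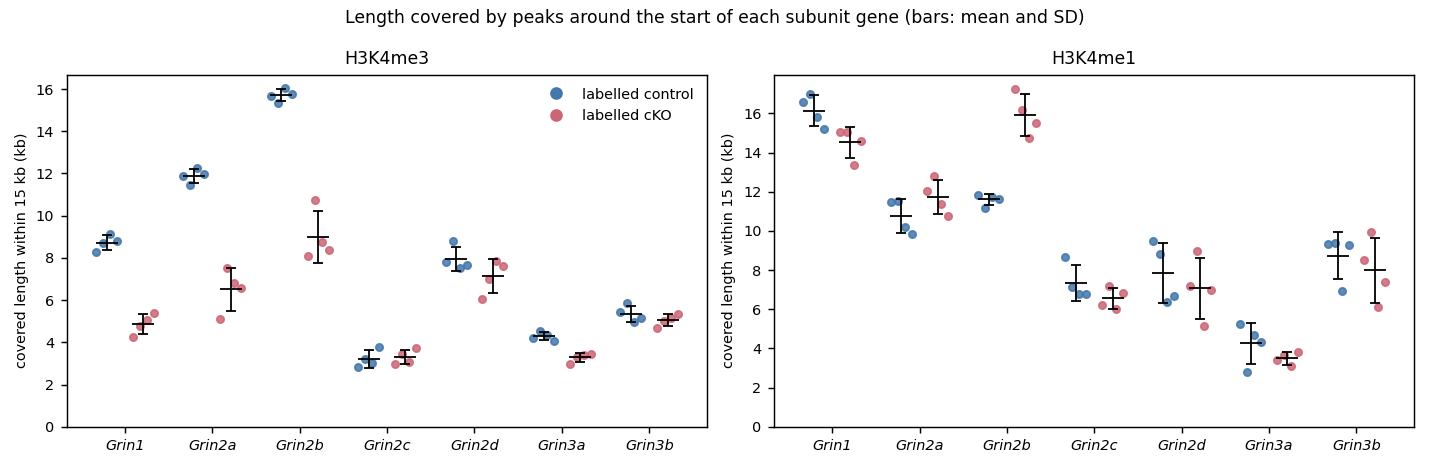
Length covered by H3K4me3 peaks (left) and H3K4me1 peaks (right) within 15 kb on each side of the start or upper end of each subunit gene, in kb, per library (points) with mean and SD. H3K4me3 is shorter without overlap in libraries labelled cKO at Grin1, Grin2a, Grin2b and Grin3a, and H3K4me1 is longer at Grin2b. Of all windows, 23.4% were called lower for H3K4me3 (limma), and how many had no overlap was not counted.

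The main peak reached less far into all 4 genes in the libraries labelled cKO. The strongest H3K4me3 peak at the upper end of Grin2a reached 11130 to 11372 bp into the gene in Control and 4176 to 5474 bp in cKO libraries. At Grin2b it reached 10049 to 15797 bp and 3292 to 4927 bp. At Grin1 the reach was 3387 to 4402 bp in Control and 1827 to 2478 bp in cKO libraries, and at Grin3a 3859 to 4293 bp and 2376 to 2682 bp. Outward, away from the gene, the same peaks reached 231 to 289 bp in Control and 118 to 223 bp in cKO libraries at Grin2a, and 468 to 769 bp and 354 to 439 bp at Grin2b, so these groups did not overlap on that side either. The outward reach overlapped between genotypes at Grin1 (25 to 441 against 35 to 357 bp) and Grin3a (198 to 270 against 162 to 293 bp). Within 2 kb on each side the difference at Grin1 was -0.10 (adjusted p 0.165) and at Grin3a -0.01 (adjusted p 0.929), while Grin2b stayed called at -0.25 (adjusted p 0.00649). The peaks carry the authors' -log10 q of 151 or more at these 4 genes in every library.

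**Figure D5:**
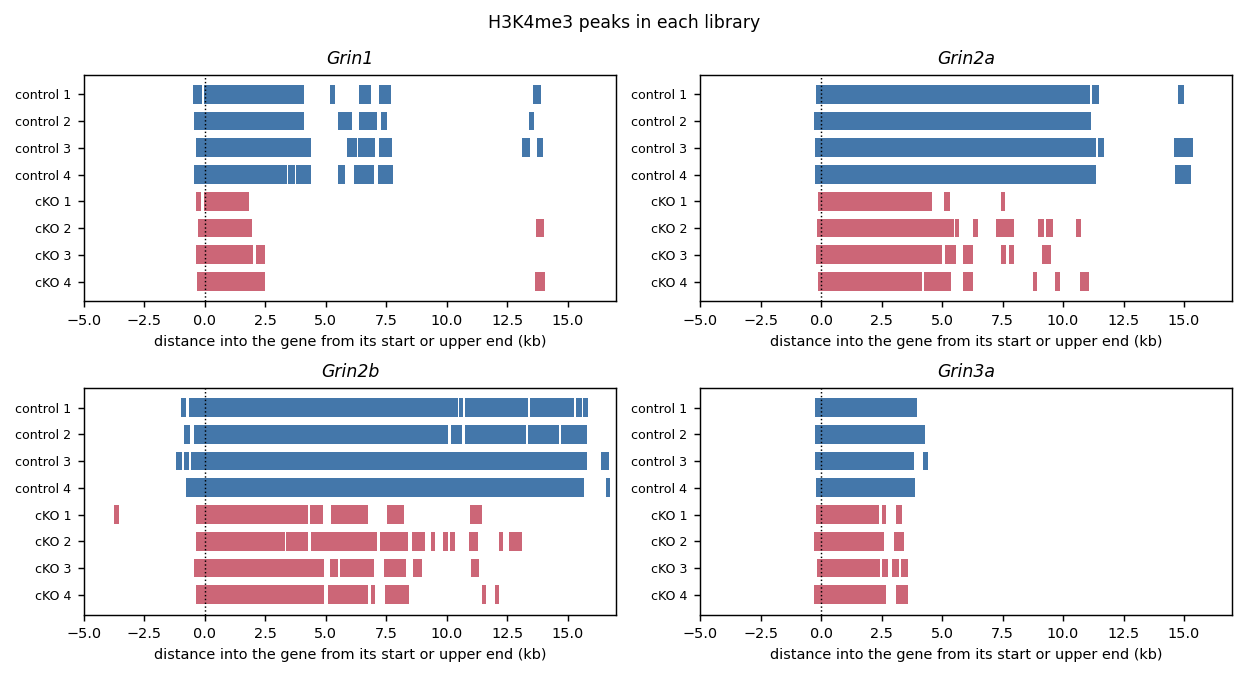
H3K4me3 peaks of each library (bars) at the 4 genes with shorter coverage, by distance into the gene from its start (Grin1) or from the upper end of its span, in kb. In Control libraries the main peak reaches 11130 to 11372 bp into Grin2a, and in libraries labelled cKO 4176 to 5474 bp, with short separate peaks beyond it.

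H3K4me1 moved the other way at Grin2b. Within 5 kb of its upper end, H3K4me1 peaks covered 1853, 2137, 1752 and 1631 bp in Control and 7265, 6198, 4732 and 5535 bp in cKO libraries 1 to 4. Every cKO library lay far above every Control library, with a log2 difference of 1.62 (SE 0.15, limma adjusted p 0.00254), and 1.41% of 30999 windows were called higher. Within 2 kb the difference was 1.18 (adjusted p 0.121). Within 15 kb it was 0.45 (adjusted p 0.0221), where 1.33% of windows were called higher, a call lost without cKO library 1 or 4 or any 1 of the 4 Control libraries (adjusted p up to 0.0658). These peaks were weak: the authors' -log10 q ran from 1.19 to 5.22 in this region, and too few reached 5 for Grin2b to be tested at that minimum. The wide H3K4me1 peak inside Grin2b began 4341 to 8639 bp from the end in Control libraries. In cKO libraries 3 and 4 it began at 1519 and 1381 bp, and in cKO libraries 1 and 2 it crossed the end.

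At Grin2a, H3K4me1 covered 1128 to 2635 bp in Control and 3302 to 3762 bp in cKO libraries, without overlap. Its log2 difference of 0.87 (SE 0.25) missed the threshold (adjusted p 0.0874). Within 2 kb the difference turned to -0.42 (adjusted p 0.582). The strongest H3K4me1 peak there had a -log10 q of 3.45 to 4.62 in Control and 5.19 to 5.81 in cKO libraries. A minimum of 5 thus left no Control coverage and gives no size of difference. This shift was not particular to Grin2a: at that minimum the median log2 difference over all 8733 windows was 1.39, against -0.02 without it. Of these windows, limma called 485 higher and 8 lower. The other 5 subunits gave differences between -0.31 (Grin3b) and 0.15 (Grin1) at their starts or upper ends, with adjusted p of 0.416 or more. Grin1 was called higher within 2 kb (1.08, SE 0.17, adjusted p 0.0249) and not within 5 or 15 kb.

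H3K9ac was shorter within 5 kb at Grin1, 3074 to 3501 bp in 3 cKO against 4499 to 5381 bp in 4 Control libraries (log2 difference -0.63, SE 0.09, limma adjusted p 0.0364). At Grin3a it was 2134 to 2169 bp against 2932 to 3391 bp (-0.50, SE 0.08, adjusted p 0.0383). Both groups were apart, and 1.38% of 25324 windows were called lower. Either call was lost when any 1 of the 7 libraries was left out (adjusted p 0.0512 to 0.141), and within 15 kb (adjusted p 0.0914 and 0.0623). At Grin1, Grin2a, Grin2b, Grin2d and Grin3a no difference within 15 kb passed the threshold (limma adjusted p 0.0623 to 0.189), where 0.355% of windows were called lower. Near the lower ends of Grin2a and Grin3a, within 15 kb, all 4 Control libraries had no H3K9ac peak. There the cKO libraries 1, 2 and 4 had 654, 479 and 370 bp at Grin2a and 435, 175 and 209 bp at Grin3a. The limma fit called both windows higher, where 0.338% of windows were. Both met the minimum of 3 libraries with a peak only through these cKO libraries, so the calls are not support for a difference. H3K27ac was called within 5 kb at none of the subunits tested, where 0.526% of 24507 windows were (limma). Grin2c and Grin3b were not tested there, as fewer than 3 libraries had a peak. Unadjusted p was under 0.05, as in 15.1% of windows, at Grin2d (-0.70, p 0.0406, adjusted p 0.306) and Grin3a (-0.43, p 0.0266, adjusted p 0.271). H3K27ac at the upper ends of Grin2a and Grin2b differed by 0.00 and 0.05 (SE 0.06 and 0.09).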

How the data were processed

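The deposited RNA tables gave raw counts of reads, in whole numbers, for Ensembl genes. Aligner, counting tool and strand setting are not given in the sources used here. Peak lists gave the length and −log10 q-value of each peak, called per library with MACS2 at a q cutoff of 0.1, per the file headers (version 2.1.1.20160309 for H3K4me3, 2.1.0.20140616 otherwise). The submitters' processing notes name GRCm38; an H3K4me3 peak lay within 500 bp of 49.3 to 50.6% of 32851 RefSeq start sites. Members and lists were chosen with earlier results of these data known. Named genes were the 7 subunits, Setd1b, called genes of the list of 47, and the 3 most similar genes per subunit. For these, edgeR 4.0.16 (TMM scaling, filterByExpr, quasi-likelihood test) was used, with DESeq2 1.42.0 as an alternative. Covered length was tested as log2(bp + 100) with limma 3.58.1 over windows with a peak in at least 3 libraries. Adjustment was by Benjamini-Hochberg over all genes or windows. Both fits were tested on simulated data. Same-numbered libraries did not deviate together in every pair (r -0.06 to 0.29 in RNA), so the numbers were not taken as pairs.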

Additional observations from a re-analysis of the deposited data

Results flagged for a closer look

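In 60 groups of at least 4 libraries examined, chance alone would flag about 1 in 20, and 3 libraries stood far from the others of their group. Groups of 3 libraries, among them both neuron RNA groups, were not examined. Grin2c in whole CA RNA reached 50.4 CPM in cKO library 6, above the other 5. H3K4me1 coverage at the upper end of Grin2a was 3762 bp in cKO library 2. At the Grin3b start H3K4me1 covered 3929 bp in Control library 2.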

How the results depend on the processing

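The ratio of Grin2a to Grin2b in whole CA RNA was near 0 throughout, -0.01 in replicates 4 to 6 alone and -0.02 to 0.03 when 1 library was left out. Leaving out 1 library moved Grin2a to Grin1 from -0.14 to 0.23 in neuron RNA and from -0.28 to -0.15 in whole CA RNA, where only the fit without Control library 1 passed (exact permutation p 0.0433, unadjusted). DESeq2 called 1 subunit and 1 gene of the pathway list in neuron RNA, where it called 4.25% of all genes. The edgeR calls there were 0 and 0, with 2.75% of all genes called. The subunits called in whole CA RNA numbered 0 in replicates 1 to 3 alone, 0 in replicates 4 to 6 alone and 1 to 3 without 1 library.

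With 1 library left out, log2 fold changes that turned sign ranged from -0.12 to 0.17 for Grin2b and -0.28 to 0.01 for Grin2c in neuron RNA, and from -0.09 to 0.01 for Grin1 in whole CA RNA, which was 0.07 in replicates 1 to 3 alone. The difference between materials ranged from -0.04 to 0.11 for Grin2a, -0.23 to 0.02 for Grin2d and -0.01 to 0.07 for Grin3a. Scaling by library size alone gave 0.10 for Grin3a between the materials.

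The replicate block gave 327 calls in neuron RNA against 539, and 5 pathway genes in whole CA RNA against 3. Same-numbered libraries shared a sequencing lane in whole CA RNA, H3K4me1, H3K4me3 and H3K9ac, and no other pairing is given in the sources used here. With the block Grin2b in whole CA RNA passed (adjusted p 0.0459), H3K4me1 calls fell from 1 to 0 within 5 kb and to 0 within 15 kb, and H3K9ac calls from 2 to 0. H3K4me3 calls fell from 3 to 2 subunits within 5 kb and stayed at 4 within 15 kb. In RNA, 1 of 3 neuron pairs and 2 of 6 whole CA pairs correlated best with their own number.

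Within 2 kb, 1 subunit was called for H3K4me3 and 0 for H3K9ac. With peaks of −log10 q of at least 5, H3K9ac gave 1. Without 1 library the counts were 2 to 3 for H3K4me3, 0 to 0 for H3K9ac and 0 to 1 for H3K4me1 within 15 kb. Signs turned within 2 kb for H3K4me1 at Grin2a (-0.42) and the lower end of Grin3a (0.08), for H3K27ac at Grin1 (0.14) and for H3K9ac at Grin2a (0.01) and Grin2c (0.20). At the stricter q they turned for H3K4me1 at Grin1 (-3.81) and Grin2d (1.24), where libraries with no such peak enter at the offset of 100 bp and the sizes cannot be read, and for H3K27ac at Grin1 (0.03) and Grin2b (-0.05). Within 15 kb they turned for H3K4me1 at Grin1 (-0.15) and H3K9ac at Grin3b (-0.01). Without 1 library, differences that turned sign ranged for H3K4me1 from -0.06 to 0.46 at the lower end of Grin2b, -0.25 to 0.08 at Grin2d and -0.50 to 0.01 at the lower end of Grin3a, and for H3K4me3 from -0.13 to 0.03 at Grin2d and -0.02 to 0.12 at Grin2c within 15 kb. They ranged for H3K27ac from -0.01 to 0.44 at the lower end of Grin2a, and for H3K9ac from -0.71 to 0.09 at the lower end of Grin2b and -0.37 to 0.31 at Grin2c. The cause was not tested.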
